A study of Mus musculus with 96 samples.

Results

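The respiratory chain genes of the mouse brain were taken as the gene symbols of the deposited table that start with mt-Nd, mt-Co, mt-Cytb, mt-Atp, Nduf, Uqcr or Atp5, or with Cox followed by a digit from 4 to 8, leaving out symbols marked as pseudogenes. The rule found 101 of 35486 symbols. Of these, 13 are encoded by the mitochondrial genome and 88 by the nucleus. The mitochondrial set holds 7 subunits of complex I, 1 of complex III, 3 of complex IV and 2 of complex V. The nuclear set holds 36 subunits of complex I, 8 Ndufaf assembly factors of complex I, 8 genes of complex III, 20 of complex IV (Ndufa4 and Ndufa4l2 counted there) and 16 of complex V. The rule uses the symbols alone and no measured value, but it was set with earlier results of these data known.

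The respiratory chain sits in the inner mitochondrial membrane. Complex I takes electrons from NADH, complex III passes them from ubiquinol to cytochrome c, complex IV hands them to oxygen, and complex V uses the proton gradient that the others build to make ATP. Complexes I, III, IV and V each hold subunits from both genomes: the mitochondrial genome is transcribed as long precursors inside the organelle, while the nuclear subunits are transcribed singly and imported as proteins. Neurons draw most of their ATP from this pathway, to drive the ion pumps that signalling depends on.

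The libraries came from male C57BL/6J mice in a study of plasma transfer and ageing. The first experiment took the cerebellum, cortex and hippocampus from each of 29 mice (87 libraries). Its untreated mice were 2 months (n = 4, an age the series text gives as 3 months) or 18 months old (n = 3). The others received daily injections of plasma from young mice or of phosphate-buffered saline (PBS): 7 injections with 18-month-old (PBS n = 4, plasma n = 5) or 22-month-old mice (PBS n = 3, plasma n = 3), and 24 injections with mice that were 19 months old (long PBS n = 4, long plasma n = 3). A second experiment gave the hippocampus of 9 further mice aged 18 months (PBS n = 4, plasma n = 5). Only whole tissue pieces were sequenced, so fewer cells of a type and less RNA per cell cannot be told apart. Within a region, p-values measure the spread between these mice. In comparisons between regions they measure the spread between libraries, since each mouse gave 3 and the main fit has no term for the mouse.

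Library totals ran from 851288 to 23768385 counts with a median of 8889509, and 7 libraries were under 2500000. Neuron markers of the labelled region were high in their own region: the cerebellar list was called higher in cerebellum than in cortex for 8 of 8 genes, the cortical list lower for 7 of 7, and the hippocampal list was higher in hippocampus than in cortex for 7 of 7. In 9 libraries, 3 of cortex and 6 of hippocampus, the markers of the own region lay more than 3 scaled median absolute deviations under the median of that region. A second number in the sample titles, whose meaning is not stated, differed between most groups and is named below where it touches a comparison.

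Cox8c had 0 counts in all 96 libraries. Cox7b2 was at 0 in 7 libraries and Cox8b in 12, with 504 and 1159 counts in total. These 3 genes were not tested between regions, which left 13 mitochondrial and 85 nuclear members there. All other members had counts enough for a test in the region comparison.

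How reads with several matches were counted is not given in the sources used here, and 7 of the 13 mitochondrial genes have near-identical copies in the nuclear genome. In the GENCODE M21 annotation of GRCm38, the stretch chr1:24611535-24616197 on the minus strand carries 7 annotated copies of mitochondrial genes. The copies of mt-Atp6 (Gm10925, 678 bases), mt-Co2 (Gm28661, 681 bases), mt-Co3 (Gm28437, 783 bases) and mt-Nd4l (Gm10222, 294 bases) are identical to the genes over nearly their whole length. The copy of mt-Nd3 (Gm28438) differs from it at 1 of 345 bases, the substitution T3C counted from 1 at the 5′ end of the gene. Copies of mt-Nd4 (876 of 1378 bases) and of mt-Co1 (483 of 1545 bases) cover a part of the gene only. None of these 7 copies has a row in the deposited table, so no counts are given for them. The 5′ ends of mt-Nd3 and its copy are shown since 1 base is all that separates them, with that base in capitals, from the GRCm38 reference:
mt-Nd3 chrM:9459-9491 (plus strand): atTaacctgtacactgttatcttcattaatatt
Gm28438 chr1:24613087-24613119 (minus strand): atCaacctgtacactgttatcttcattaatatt
The levels of the mitochondrial genes differed widely. Per kilobase of gene, the median level in cortex was 6449 counts per 1000000 (CPM) for mt-Co1, 4429 for mt-Cytb, 3233 for mt-Nd1, 1527 for mt-Nd2, 1263 for mt-Nd4, 969 for mt-Nd5 and 890 for mt-Nd6. It was 209 for mt-Nd3, the gene whose copy differs at that base, and 11.2 for mt-Co3, 9.72 for mt-Atp6, 8.43 for mt-Co2 and 7.59 for mt-Nd4l, the genes with an identical copy. The gene mt-Atp8 has no annotated copy and stood at 7.94 per kilobase. It lies between mt-Co2 and mt-Atp6 on the mitochondrial genome. On chr1, bases without an annotated copy lie between the copies of mt-Co2 (chr1:24614885-24615565) and mt-Atp6 (chr1:24613974-24614651). Only annotated transcripts were searched, so whether those bases match mt-Atp8 was not tested. The gene also shares 43 bases with mt-Atp6. Those shared bases are in capitals in the stretch that joins the genes:
mt-Atp8 to mt-Atp6 chrM:7902-7994 (plus strand): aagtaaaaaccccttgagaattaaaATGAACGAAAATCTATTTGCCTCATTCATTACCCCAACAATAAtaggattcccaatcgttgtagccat
Other pairs overlap too: mt-Nd5 and mt-Nd6 share 14 bases on opposite strands, mt-Nd4l and mt-Nd4 share 7, and mt-Atp6 and mt-Co3 share 1. The libraries do not mark strand, so reads over mt-Nd5 and mt-Nd6 cannot be told apart where the genes overlap. Of the genes with a partial copy, mt-Co1 was the highest of all 13. The other, mt-Nd4, with a copy over 63.6% of its length, stood above mt-Nd5 and mt-Nd6, which have none. The part of the copies in the levels was not tested, and the levels of genes with a copy are reported as uncertain.

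**Figure D1:**
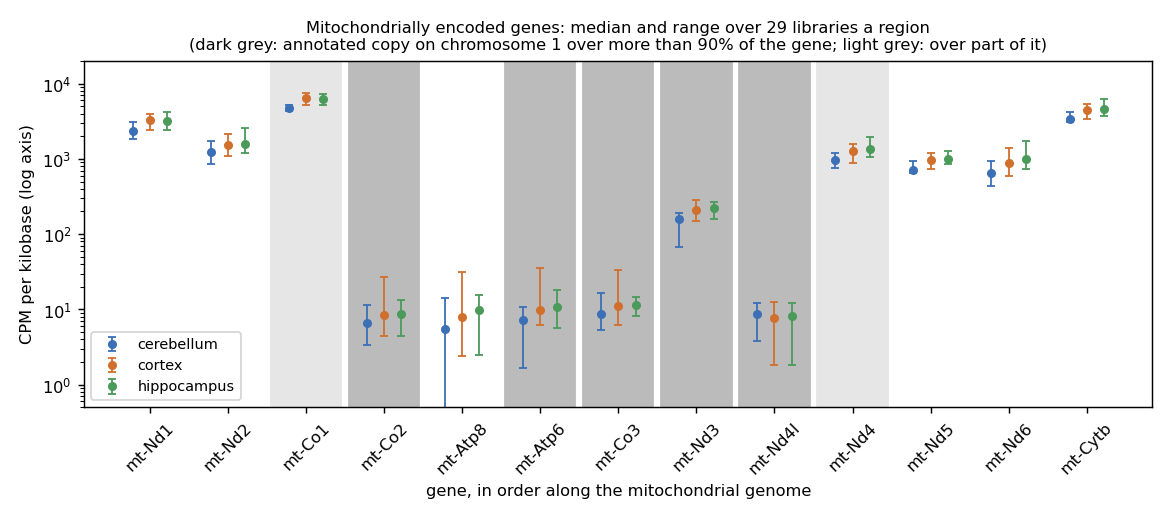
Level of the 13 mitochondrial genes in genome order, in CPM per kilobase of gene on a log axis, as the median (point) and the range over 29 libraries of each region. Dark grey marks genes with an annotated chromosome 1 copy over more than 90% of their length and light grey genes with a copy over a part; the dark grey genes and mt-Atp8 sit far under the others, and the lowest cerebellar value of mt-Atp8, 0, is off the axis.

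The mitochondrial set took a smaller share of the counts in cerebellum than in the other regions, while the nuclear set took nearly the same share in all 3. The 13 mitochondrial genes held 1.80% ± 0.141 of all counts in cerebellum, 2.36% ± 0.235 in cortex and 2.37% ± 0.222 in hippocampus (SD, n = 29 each). The nuclear genes held 1.18% ± 0.0639, 1.19% ± 0.0756 and 1.20% ± 0.0612. In the hippocampus of the second experiment the shares were 2.26% ± 0.206 and 1.25% ± 0.0913 (SD, n = 9). Within a mouse, the mitochondrial share was lower in cerebellum than in cortex in 28 of 29 mice and lower than in hippocampus in 29 of 29. The nuclear share of cerebellum was above that of cortex in 13 mice and under it in 16. The ratio of mitochondrial to nuclear counts was 1.53 ± 0.104 in cerebellum, 2.00 ± 0.234 in cortex and 1.97 ± 0.182 in hippocampus. It was lower in cerebellum than in cortex in 29 of 29 mice, by 0.38 ± 0.19 on the log2 scale (SD). Hippocampus stood above cortex in 15 mice and under it in 14. These shares are sums over the members and carry no test.

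**Figure D2:**
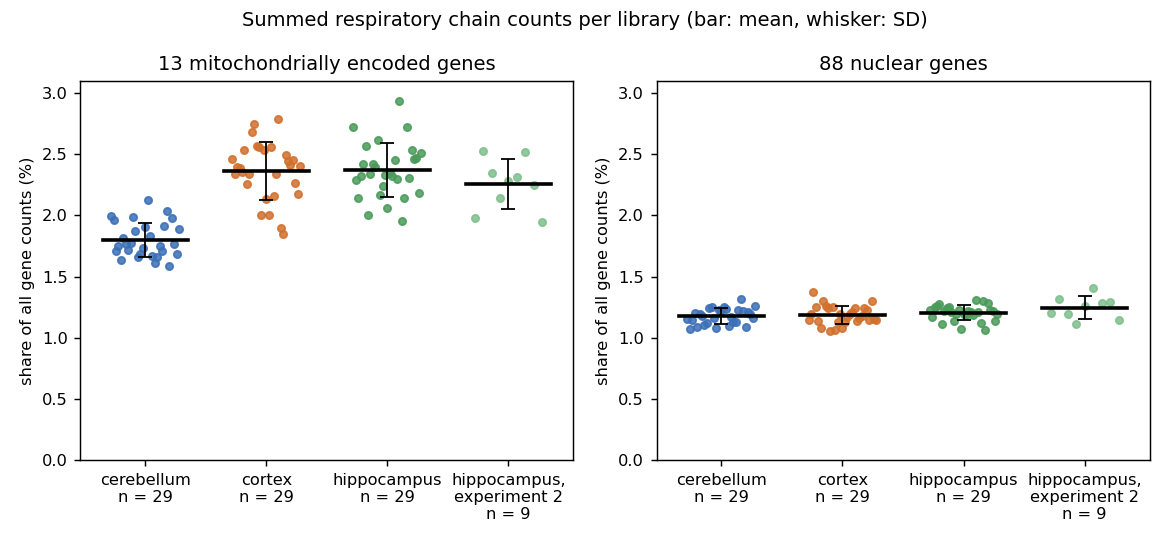
Share of each library's counts, in percent, held by the 13 mitochondrial and by the 88 nuclear respiratory chain genes, in 3 regions (29 libraries each) and in the hippocampus of the second experiment (9 libraries). Points are libraries, the bar is the mean and the whisker the SD; the mitochondrial share is lower in cerebellum (mean 1.80%) than in cortex (2.36%), and the nuclear shares lie between 1.18% and 1.25%.

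By complex, the mitochondrial shares of complexes I, III and IV were each lowest in cerebellum, and the nuclear ones had no common direction. Between cortex and hippocampus, the mitochondrial shares of complexes I and III were higher in hippocampus and that of complex IV was lower. The mitochondrial subunits of complex I held 0.665% of counts in cerebellum, 0.861% in cortex and 0.894% in hippocampus. For the mitochondrial subunits of complex IV the shares were 0.738%, 0.994% and 0.950%, and for mt-Cytb, the mitochondrial subunit of complex III, 0.397%, 0.509% and 0.524%. Among nuclear genes, complex V was highest in cerebellum, at 0.429% against 0.394% in cortex and 0.408% in hippocampus. Nuclear complex IV was lowest there, at 0.231% against 0.276% and 0.265%. Nuclear complexes I (0.372%, 0.371% and 0.385%) and III (0.127%, 0.126% and 0.127%) were close in all regions.

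Gene by gene, 12 of 13 mitochondrial genes were lower in cerebellum than in cortex, with a median log2 difference of -0.57. Of 85 nuclear genes tested, 60 were lower and 10 higher, with a median of -0.22. Most genes differ between these tissues: of 17644 genes tested, 85.1% were called, 43.8% higher and 41.3% lower in cerebellum, with a median difference of 0.02. Against that background the share of members called is no result in itself. With this scaling, the direction is unlike the background: 12 of 13 and 60 of 85 lower, where all genes split nearly evenly. That even split is over genes of all lengths, and shorter genes lay more often on the lower side, as given below. For the nuclear set, both the size of the difference and its split of directions rest on the scaling of the libraries. The trimmed-mean scaling factors had a geometric mean of 1.07 in cerebellum, 0.959 in cortex and 0.971 in hippocampus, and with library totals alone, an alternative chosen after seeing the data, the nuclear genes split into 36 lower and 27 higher with a median of -0.06. The mitochondrial genes stayed at 12 lower with a median of -0.41 under that scaling, while mt-Nd4l was then called higher.

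The gene mt-Co1, which encodes the catalytic subunit of complex IV (chrM:5328-6872, plus strand), ran from 6691 to 8065 CPM in cerebellum with a median of 7320, from 8111 to 11603 in cortex with a median of 9963, and from 7924 to 11124 in hippocampus with a median of 9520. Every cerebellar library was under every cortical one, and the difference of -0.59 (log2, SE 0.03) had an adjusted p of 1.92e-33. The gene mt-Cytb, the cytochrome b that carries the quinone sites of complex III, ran from 3554 to 4729 CPM in cerebellum (median 3865), from 3885 to 6084 in cortex (5067) and from 4277 to 7037 in hippocampus (5224). The ranges of cerebellum and cortex overlapped, but cerebellum was lower in 28 of 29 mice, by 0.52 on the log2 scale (SE 0.04, adjusted p = 7.43e-24). The gene mt-Nd1, a membrane subunit of complex I next to the quinone site, ran from 1762 to 2919 CPM in cerebellum (median 2230), from 2282 to 3728 in cortex (3094) and from 2339 to 3980 in hippocampus (3075). Its difference was -0.57 (SE 0.04, adjusted p = 7.14e-22), again with overlapping ranges and 28 of 29 mice lower.

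The other mitochondrial genes lay close to these. The log2 difference between cerebellum and cortex was -0.45 for mt-Nd2, -0.58 for mt-Nd3, -0.52 for mt-Nd4, -0.54 for mt-Nd5 and -0.58 for mt-Nd6, all of complex I. It was -0.66 for mt-Co2 and -0.52 for mt-Co3 of complex IV, and -0.65 for mt-Atp6 and -0.66 for mt-Atp8 of complex V. Those that rest on few counts moved as the abundant ones did: the median of mt-Atp6 was 4.94 CPM in cerebellum and 6.62 in cortex. Only mt-Nd4l did not pass, with 0.10 and an adjusted p of 0.332 at median levels of 2.56 and 2.26 CPM.

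Of the nuclear groups, complex IV had the lowest median difference between cerebellum and cortex, -0.35, with 14 of 17 tested genes lower and 3 higher. Complex I had 25 of 36 lower and 4 higher (median -0.21), its Ndufaf assembly factors 7 of 8 lower and 0 higher (median -0.25), complex V 10 of 16 lower and 2 higher (median -0.11), and complex III 4 of 8 lower and 1 higher (median -0.09). Cox6c, a small nuclear subunit of complex IV, ran from 153 to 269 CPM in cerebellum (median 205) and from 228 to 359 in cortex (285). It was lower in 27 of 29 mice, by 0.64 (log2, adjusted p = 7.66e-23). Ndufb9, an accessory subunit in the membrane arm of complex I (chr15:58933756-58939488, plus strand), ran from 115 to 173 CPM in cerebellum (median 135), from 174 to 261 in cortex (201) and from 181 to 245 in hippocampus (206). No cerebellar library reached the lowest of the other regions, and the difference from cortex was -0.73 (SE 0.03, adjusted p = 5.61e-35). Exons of Ndufb9 overlap another annotated gene over 19.5% of their length, on the same strand.

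Further genes lower in cerebellum than in cortex were Cox8a, a small subunit of complex IV (-0.60, adjusted p = 3.64e-15), Ndufaf2, an assembly factor of complex I (-0.58, adjusted p = 3.62e-14), Atp5md, a small subunit of complex V (-0.57), and Uqcr11, a small subunit of complex III (-0.55). Ndufaf2 shares 65.6% of its exon length with another gene, so its value is uncertain. Smaller differences were found for Cox5b (-0.43), Cox6b1 (-0.38), Cox7a2 (-0.30), Ndufv1, which holds the NADH site of complex I (-0.18), and Cox5a (-0.16). Cox5a, Ndufa4 (-0.10) and Uqcrc1 (-0.12) changed sign with library totals alone.

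The nuclear genes that were higher in cerebellum included catalytic ones. Uqcrfs1, the Rieske iron-sulfur protein of complex III, ran from 147 to 182 CPM in cerebellum (median 169), from 114 to 148 in cortex (129) and from 111 to 142 in hippocampus (132). It was higher in cerebellum than in cortex in 29 of 29 mice, with a log2 difference of 0.21 and an adjusted p of 6.98e-13. Ndufs1, the largest iron-sulfur subunit of complex I, ran from 164 to 225 CPM in cerebellum (median 204) against 141 to 179 in cortex (155), with 29 of 29 mice higher and a difference of 0.18 (adjusted p = 1.56e-10). Ndufb2 (0.23), Ndufab1 (0.18) and Ndufv3 (0.17) of complex I and Atp5a1 (0.10) of complex V were also called higher. Atp5b, the catalytic beta subunit of complex V, had medians of 1339 CPM in cerebellum, 1165 in cortex and 1138 in hippocampus. Its difference from cortex of 0.06 passed in the edgeR fit (adjusted p = 0.00314) but not with DESeq2 (adjusted p = 0.0556).

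**Figure D3:**
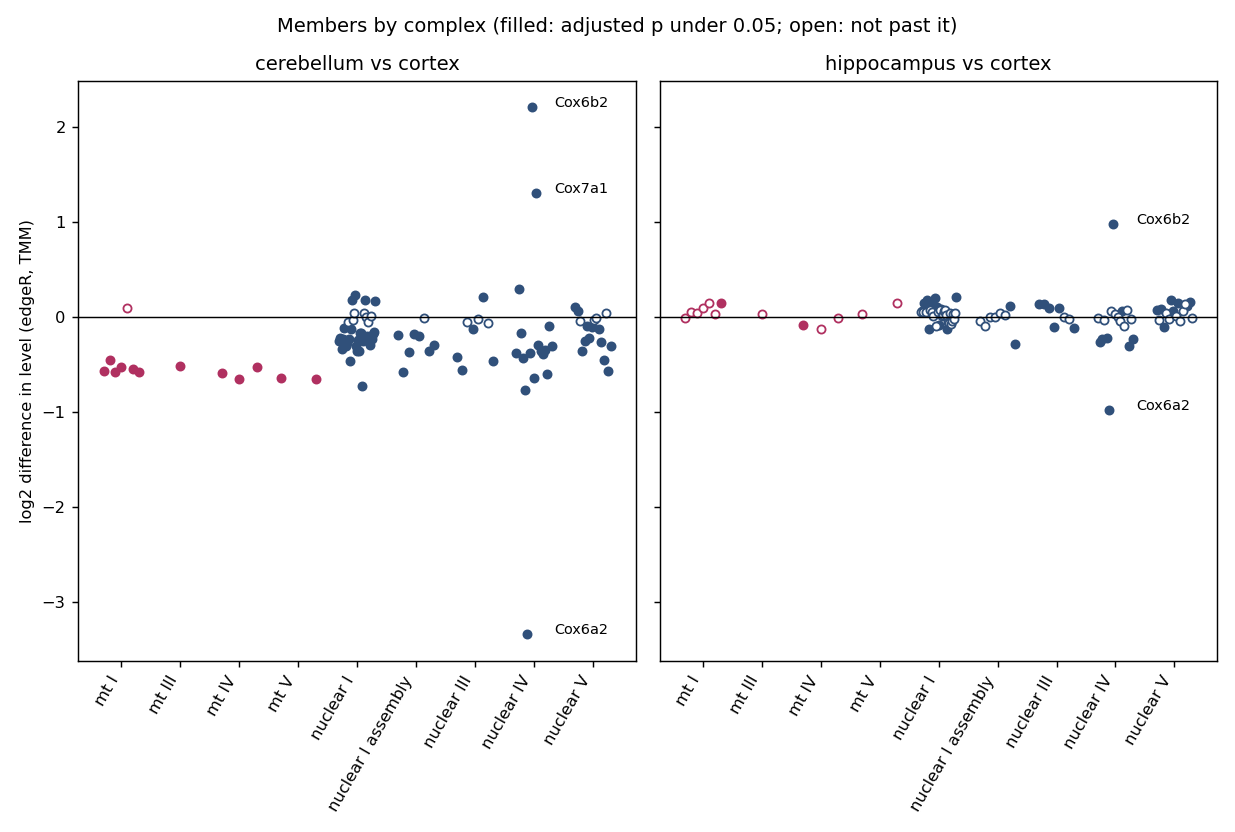
Log2 difference of each tested member between cerebellum and cortex and between hippocampus and cortex, by complex and genome, with filled points for an adjusted p under 0.05. The mitochondrial genes other than mt-Nd4l sit between -0.66 and -0.45 in the first panel and near 0 in the second, while the labelled Cox6a2, Cox6b2 and Cox7a1 lie far from the other members.

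Some subunits of complex IV have paired genes, of which 1 is broadly expressed and the other is known for a narrower set of tissues. Cox6a2, the form known from heart and skeletal muscle (chr7:128205435-128206387, minus strand), ran from 0 to 2.91 CPM in cerebellum with a median of 1.31, from 4.97 to 16.1 in cortex with a median of 11.5, and from 3.87 to 10.2 in hippocampus with a median of 5.53. Every cerebellar library was under every library of the other regions. The log2 difference from cortex was -3.35 (SE 0.12, adjusted p = 1.10e-42), the lowest of all members tested there. Exons of Cox6a2 overlap those of Itgad over 10.3% of their length. Its broadly expressed partner Cox6a1 (chr5:115345642-115348981, minus strand) ran from 119 to 175 CPM in cerebellum (median 143), from 170 to 297 in cortex (214) and from 152 to 233 in hippocampus (183), with a difference of -0.76 (SE 0.05, adjusted p = 1.07e-26).

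Cox6b2, the form known from testis (chr7:4751792-4753094, minus strand), went the other way. It ran from 1.17 to 5.26 CPM in cerebellum (median 3.74), from 0 to 1.54 in cortex (0.647) and from 0 to 3.93 in hippocampus (0.999). The ranges overlapped at their ends, cerebellum was higher than cortex in 28 of 29 mice, and the log2 difference was 2.21 (SE 0.16, adjusted p = 2.75e-22). Cox7a1, another form known from muscle (chr7:30184144-30186078, plus strand), ran from 1.99 to 4.81 CPM in cerebellum (median 3.19), from 0.0921 to 2.75 in cortex (1.23) and from 0.335 to 3.25 in hippocampus (1.10). It was higher in cerebellum in 29 of 29 mice, by 1.31 (SE 0.14, adjusted p = 3.51e-14). Cox4i2, the form of subunit 4 known from lung and for its response to low oxygen, ran from 1.74 to 4.56 CPM in cerebellum (median 3.09) and from 0.921 to 5.13 in cortex (2.13), with a difference of 0.30 (adjusted p = 0.00927). Cox4i1, its broadly expressed partner (chr8:120668222-120674207, plus strand), ran from 398 to 524 CPM in cerebellum (median 478), from 481 to 632 in cortex (550) and from 484 to 653 in hippocampus (548), and was lower in cerebellum than in cortex by 0.38 (adjusted p = 7.97e-22). The rare forms Cox6a2, Cox6b2, Cox7a1, Cox4i2 and Cox8b had medians of at most 11.5 CPM in any region. They did not share a direction between regions.

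**Figure D4:**
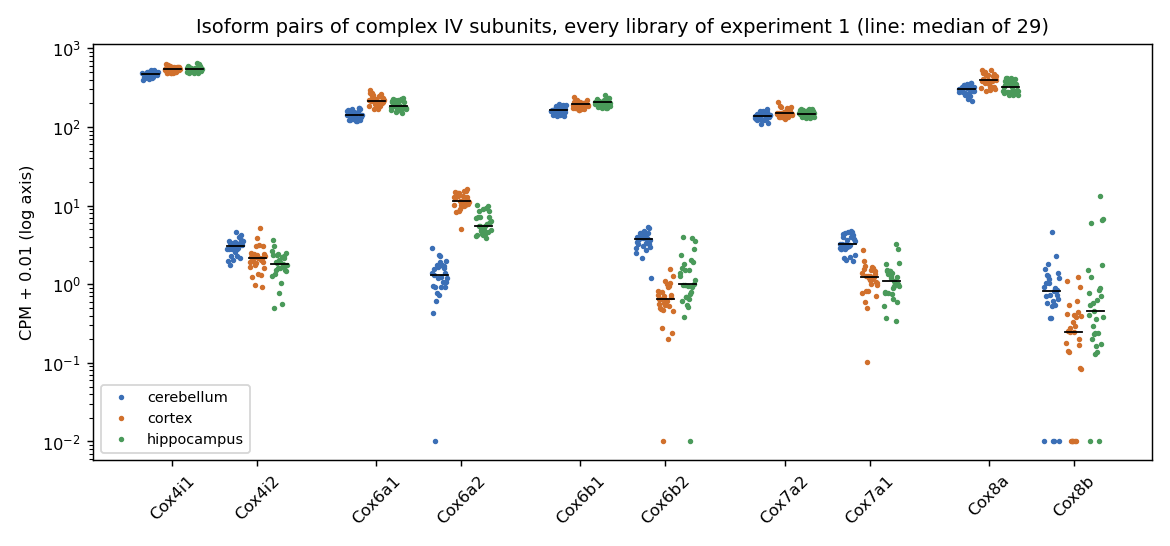
CPM of the paired genes of complex IV (Cox4i1 and Cox4i2, Cox6a1 and Cox6a2, Cox6b1 and Cox6b2, Cox7a2 and Cox7a1, Cox8a and Cox8b) in each library of 3 regions, on a log axis after adding 0.01 CPM, with a line at the median of 29 libraries. Cox6a2 is lowest in cerebellum (median 1.31 CPM) and highest in cortex (11.5), while Cox6b2 and Cox7a1 are highest in cerebellum (3.74 and 3.19).

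The promoters of Cox6a1 and Cox6b2, a ubiquitous and a narrow form of different subunits, are shown as 1 gene lower and 1 higher in cerebellum than in cortex. The promoter of Cox6a2 was not matched. RefSeq promoters (GRCm38.p6, from 250 bases before to 50 bases after the gene start) matched 71 of 88 nuclear members, out of 27025 in all. Nuclear respiratory factor 1 (NRF1) and factors of the ETS family, such as GABP, are known regulators of nuclear respiratory chain genes. On both strands, the NRF1 core, GCGCA and GCGC joined by any base, was found in 16 of 71 members (22.5%) and in 5.19% of all promoters. Its palindromic form, which has T as the joining base and is counted among these, was found in 7 members (9.86%, all promoters 1.07%). The ETS core CGGAAG was found in 31 (43.7%, all promoters 18.8%) and TATAAA in 8 (11.3%, all promoters 15.7%). In the sequences that follow, capitals mark NRF1 and ETS cores:
Cox6a1 chr5:115348909-115349208 (minus strand): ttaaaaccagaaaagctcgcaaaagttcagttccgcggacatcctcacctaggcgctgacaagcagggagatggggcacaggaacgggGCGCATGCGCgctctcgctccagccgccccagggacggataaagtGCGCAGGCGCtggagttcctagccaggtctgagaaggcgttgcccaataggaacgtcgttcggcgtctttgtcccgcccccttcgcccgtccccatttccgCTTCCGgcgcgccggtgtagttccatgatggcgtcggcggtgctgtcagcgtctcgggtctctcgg
Cox6b2 chr7:4753045-4753344 (minus strand): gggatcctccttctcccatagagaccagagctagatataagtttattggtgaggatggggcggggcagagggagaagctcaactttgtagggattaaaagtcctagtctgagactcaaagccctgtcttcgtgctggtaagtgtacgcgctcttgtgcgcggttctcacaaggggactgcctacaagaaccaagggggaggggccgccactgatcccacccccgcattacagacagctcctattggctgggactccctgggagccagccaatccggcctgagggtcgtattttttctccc
Cox6a1 holds 2 NRF1 cores, the first at -162 from the start, and 1 ETS core, read here on the reverse strand as CTTCCG, at -16. Cox6b2 holds none of these letters in this window. Of the 31 members with an ETS core, 27 were lower and 0 higher in cerebellum than in cortex, with a median of -0.24, and of 38 tested members without 1, 24 were lower and 7 higher, with a median of -0.17. With an NRF1 core, 12 of 16 were lower and 0 higher (median -0.21), and without, 39 of 53 were lower and 7 higher (median -0.22). These splits were made for the members only, not for other genes with the same letters. They rest on the scaling, as the split of the nuclear set does. A link between the letters and the direction was not tested. A match is a run of letters and not a measured binding site.

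Other genes of the pathway were spread over both directions. Of 10 genes of complex II and cytochrome c, 5 were higher and 4 lower in cerebellum than in cortex (median 0.07): Sdha, the flavoprotein of complex II, was at 0.13 and its iron-sulfur partner Sdhb at -0.30, while Cyc1, the cytochrome of complex III, was at 0.12 and Cycs, the soluble cytochrome c, at -0.21. Of 26 assembly factors of complexes III and IV, 8 were higher and 13 lower (median -0.10).

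Markers of cell types differed between these tissues as well. Pan-neuronal markers summed to 3968 to 4779 CPM in cerebellum, 5109 to 7843 in cortex and 4639 to 5627 in hippocampus, and 4 of 5 were called lower in cerebellum than in cortex with 0 higher. Astrocyte markers summed to 2071 to 2479 CPM in cerebellum, 888 to 1354 in cortex and 1381 to 2037 in hippocampus, with 4 of 5 higher in cerebellum. Choroid plexus markers varied within each region, from 20.1 to 1768 CPM in cerebellum, from 6.08 to 123 in cortex and from 10.7 to 4989 in hippocampus. Microglial markers were lower in cerebellum for 5 of 5. The part of these cell types in the respiratory chain differences was not tested. Transcript length also moved with the difference: over 84 nuclear members, the rank correlation of coding transcript length with the difference between cerebellum and cortex was 0.283, beside 0.0578 over 14162 genes. Members of up to 861 bases had a median of -0.26 (41 genes) and longer ones -0.18 (43 genes). Over all tested genes, those of up to that length had a median of -0.17, with 297 on the lower side, and the 13696 longer ones a median of 0.01. These are correlations across genes that share all libraries, and the part of length was not tested.

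Hippocampus and cortex were closer. Of the 13 mitochondrial genes, mt-Co1 was lower in hippocampus (-0.08, adjusted p = 0.00975, 22 of 29 mice lower) and mt-Nd6 higher (0.15, adjusted p = 0.0472). The call of mt-Nd6 was lost under several other settings. The difference of 0.09 for mt-Nd4 passed only with the mouse as a block (adjusted p = 0.0477, otherwise 0.0631). The mitochondrial median was 0.03. Of 85 nuclear genes, 25 were higher and 13 lower with a median of 0.03. Over all genes 63% were called, 31.5% higher and 31.5% lower, with a median of 0.00, so the share of members called was under the background. Nuclear members of complex I split 11 higher to 3 lower, its assembly factors 1 to 1, complex III 4 to 2, complex V 7 to 1 and complex IV 2 to 6.

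Of the 13 nuclear members lower in hippocampus, 6 were of complex IV. Cox6a2 was lower than in cortex by 0.98 (adjusted p = 5.88e-16), in 28 of 29 mice. Cox8a, with medians of 322 CPM in hippocampus and 390 in cortex, was lower in 25 of 29 mice, by 0.31 (adjusted p = 6.47e-06). Cox5a, a subunit on the matrix side, ran from 134 to 174 CPM in hippocampus (median 146) and from 139 to 235 in cortex (173), and was lower in 26 of 29 mice, by 0.24 (adjusted p = 1.14e-07). Cox6a1 (-0.23, adjusted p = 1.71e-05), Cox4i2 (-0.26, adjusted p = 0.0298, but 0.0534 with the mouse as a block), Ndufa4l2 (-0.23, adjusted p = 0.0124) and the assembly factor Ndufaf8 (-0.28, adjusted p = 0.000755) were lower as well, and so were Ndufb5 (-0.09) and Ndufa6 (-0.12) of complex I, Uqcrc1 (-0.11) and Uqcrq (-0.12) of complex III and Atp5d (-0.10) of complex V. Cox6b2 was higher, by 0.98 (adjusted p = 7.41e-07), but in 19 of 29 mice and at a median of 0.999 CPM. Ndufv3 (0.21, adjusted p = 2.80e-06), Ndufb11 (0.20), Ndufa3 (0.18) and Atp5g1 (0.18) led the other higher members. Cox7a1 (0.00, adjusted p = 0.993) and Cox4i1 (-0.01, adjusted p = 0.766) did not pass.

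Between hippocampus and cerebellum, 12 of 13 mitochondrial genes were higher in hippocampus (median 0.56), with mt-Nd4l at 0.05 (adjusted p = 0.651). Among 85 nuclear genes, 61 were higher and 9 lower (median 0.24), where 85.4% of all genes were called, 41.5% higher and 43.9% lower. The comparison shares libraries with the others. Cox6a2 (2.36), Ndufb9 (0.75), Atp5md (0.73) and Cox6c (0.67) were higher in hippocampus, and Cox7a1 (-1.31), Cox6b2 (-1.23), Cox4i2 (-0.56) and Ndufb2 (-0.32) were lower. Without the 9 libraries of low own-region markers, the members called were 82 between cerebellum and cortex, 42 between hippocampus and cortex and 84 between hippocampus and cerebellum.

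With age and treatment the respiratory chain genes were not called. In each of 20 comparisons within a region, edgeR called 0 members at an adjusted p under 0.05, and so did DESeq2. The smallest adjusted p of any member with edgeR was 0.0579, for Cox8b in the ageing cerebellum. DESeq2 returned no adjusted p for that gene there (log2 difference 2.89, SE 0.947), and it was counted as not called. Counts at an unadjusted p under 0.05 are given below beside the same share of all genes. Counts of members on the higher or lower side are given without the split of all genes. Members of a set also varied together across libraries, as given below for Cox4i1 and mt-Co1, so such counts are not independent.

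Between untreated mice of 18 and 2 months, 0 of 13 mitochondrial and 9 of 87 nuclear genes (10.3%) were under an unadjusted p of 0.05 in cerebellum, where the share of all genes was 15% and 2.39% were called. In cortex these counts were 1 and 2 (all genes 6.18%, called 0.112%), and in hippocampus 0 and 1 of 86 (all genes 6.39%, called 0.0719%). The median difference of the mitochondrial set was 0.01 in cerebellum, -0.02 in cortex and 0.04 in hippocampus, and that of the nuclear set -0.06, 0.04 and -0.02. For mt-Co1 the log2 difference with its 95% interval was 0.04 (-0.08 to 0.15) in cerebellum, -0.11 (-0.28 to 0.05) in cortex and 0.04 (-0.16 to 0.25) in hippocampus. For Cox4i1 in cerebellum it was -0.07 (-0.22 to 0.09). Ndufa9, a subunit of complex I near the quinone site, ran from 111 to 119 CPM in cerebellum at 2 months and from 102 to 105 at 18 months. Its groups did not overlap, but the difference of -0.19 had an adjusted p of 0.0722. The untreated mice of 18 and 2 months differ in the second title number, which cannot be told apart from age.

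The ratio of mitochondrial to nuclear counts in cerebellum was 1.42, 1.43, 1.47 and 1.48 at 2 months and 1.50, 1.52 and 1.59 at 18 months. The groups did not overlap, by a small gap. In nearly all other age and treatment comparisons within an experiment, groups overlapped in the mitochondrial share, the nuclear share and the ratio. The other exceptions were the mitochondrial share of cortex between the PBS ages and the nuclear share of the 22-month hippocampus under plasma. With groups this small, some separation can arise by chance over that many comparisons. Choroid plexus markers summed to 23.0, 30.5, 370 and 1092 CPM in the younger mice and to between 1076 and 1505 in the older ones, and their part in the ratio was not tested. The difference of the age change between regions was also fitted. Between cortex and cerebellum 0 of 13 mitochondrial and 3 of 87 nuclear genes were under an unadjusted p of 0.05 (all genes 5.24%, called 0.041%). Between hippocampus and cerebellum the counts were 0 and 3 (all genes 8.65%, called 0.0513%), and between hippocampus and cortex 0 and 1 (all genes 4.56%, called 0%). No member was called by edgeR or DESeq2 in these.

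Cox8b, the form of subunit 8 known from heart and skeletal muscle, was nearly absent from the younger cerebellum. It had 4 counts over the 4 libraries of 2 months, at most 2 in any, and 30 over the 3 libraries of 18 months, from 9 to 11 in each. The libraries did not overlap, and the fitted log2 difference of 2.75 had an adjusted p of 0.0579. In cortex it had 0 counts in the 4 younger libraries and 12 in the 3 older ones, from 1 to 9 in each. Most of the older counts thus came from 1 library. The pooled level is at least 6.20-fold higher against a floor of 3 counts over the group, with an adjusted p of 0.125. In hippocampus the counts were 13 and 10. The highest Cox8b value of all libraries was 13.1 CPM, in a hippocampus whose choroid plexus markers summed to 4989 CPM, the highest of that region. In cerebellum the choroid plexus sums given above were also lower in most of the younger libraries. Their part in the Cox8b values was not tested.

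Between PBS-treated mice of 22 and 18 months, the mitochondrial set of the cortex had the largest median difference of the 20 comparisons within a region. Its share of counts was 1.90%, 2.14% and 2.16% at 22 months and 2.34%, 2.34%, 2.36% and 2.57% at 18 months, with no overlap. All 13 mitochondrial genes were on the lower side, with a median of -0.20. Of these, 7 (53.8%) were under an unadjusted p of 0.05, and 12 of 87 nuclear genes (13.8%), where the share of all genes was 10.9% and 0.00533% (1 gene) was called. The nuclear set had 79 genes on the lower and 8 on the higher side, with a median of -0.14. The lowest adjusted p of a member was 0.227.

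The gene mt-Nd2, another membrane subunit of complex I, stood at 1134, 1273 and 1315 CPM in cortex at 22 months and at 1408, 1527, 1598 and 1799 at 18 months. The groups did not overlap, and the log2 difference was -0.38 (SE 0.12, adjusted p = 0.227). For mt-Nd1 the values were 2282, 2573 and 2852 against 2907, 2936, 3239 and 3508 CPM (-0.32, adjusted p = 0.253). For mt-Co1 they were 8450, 9159 and 9355 against 9463, 9963, 10404 and 10487 CPM (-0.20, adjusted p = 0.379). Both were likewise apart without passing the test, and so was the direction of mt-Cytb (-0.25, adjusted p = 0.304) and Cox4i1 (-0.11, adjusted p = 0.714). The mitochondrial median ranged from -0.28 to -0.15 when a mouse was left out. Pan-neuronal markers summed to 5109 to 7082 CPM at 22 months and 6944 to 7459 at 18 months, and astrocyte markers to 1007 to 1310 and 888 to 1017. Their part was not tested. All PBS mice of 22 months differ in the second title number from those of 18 months, so that number and age cannot be told apart.

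The same comparison gave less in the other regions. In cerebellum 0 mitochondrial and 4 nuclear genes were under an unadjusted p of 0.05 (all genes 15.2%, called 0.157%), with medians of -0.06 and -0.03. Leaving out 1 mouse moved these between -0.25 and 0.02 and between -0.11 and 0.07. In hippocampus both counts were 0 (all genes 7.85%, called 0%), with medians of -0.10 and 0.03. Whether the change differs between regions was not tested.

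Over the 8 groups, the log2 ratio of mitochondrial to nuclear counts in cortex averaged 1.16 in the untreated mice of 2 months, 1.05 in those of 18 months, 0.99 with PBS and 1.01 with plasma at 18 months, 1.02 with long PBS and 0.95 with long plasma at 19 months, and 0.86 with PBS and 0.82 with plasma at 22 months. The highest mean was at 2 months and the lowest were at 22 months, and those between did not follow age. Treatment and title number differ along these groups and cannot be told apart from age. In cerebellum the untreated mice went the other way, with 0.54 at 2 months and 0.62 at 18 months.

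**Figure D5:**
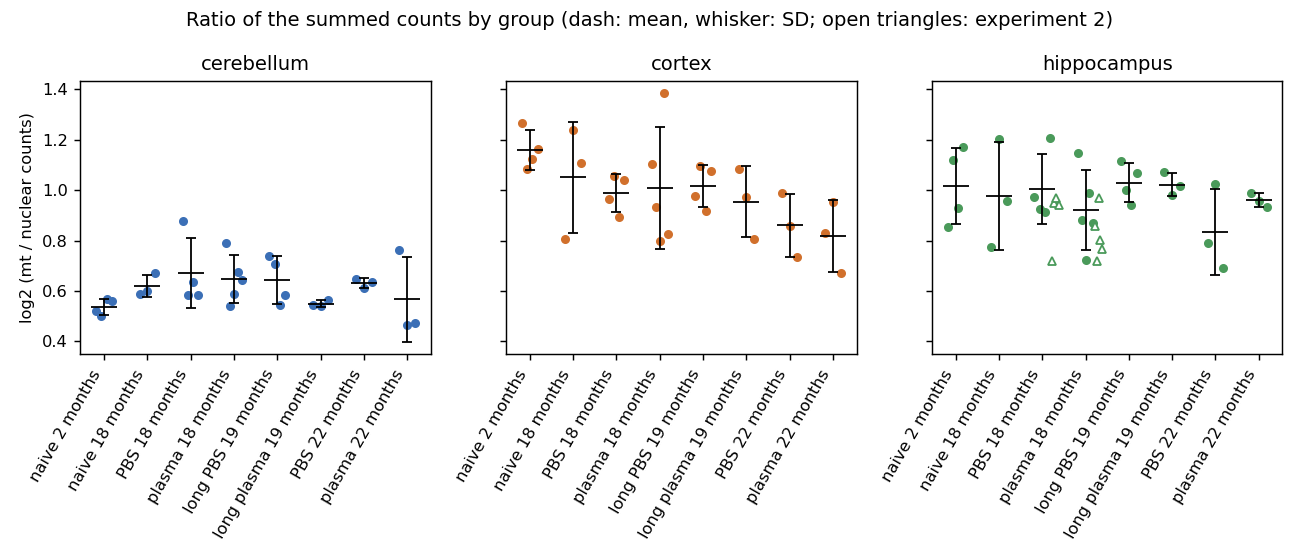
Log2 ratio of mitochondrial to nuclear respiratory chain counts for each library, by group, in the 3 regions, with a dash at the mean and a whisker for the SD in the first experiment and open triangles for the second. In cortex the means run from 1.16 at 2 months to 0.86 and 0.82 at 22 months, and cerebellum lies under the other regions.

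PBS injection itself was compared with no treatment at 18 months. In cerebellum 0 mitochondrial and 0 nuclear genes were under an unadjusted p of 0.05 (all genes 3.32%, called 0%), in cortex 1 and 2 (all genes 3.63%, called 0%) and in hippocampus 0 and 0 (all genes 3.54%, called 0%). The medians of the mitochondrial set were -0.07, -0.11 and -0.02, and of the nuclear set -0.02, 0.00 and -0.01. The injected and untreated mice differ in title number as well.

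Young plasma gave no called member in any region or age. At 18 months after 7 injections, the counts at an unadjusted p under 0.05 were 0 mitochondrial and 0 nuclear in cerebellum (all genes 4.05%, called 0%), 0 and 1 in cortex (all genes 4.06%, called 0%) and 0 and 0 in hippocampus (all genes 2.43%, called 0%). At 22 months they were 0 and 6 in cerebellum (all genes 2.28%, called 0%), 1 and 0 in cortex (all genes 5.64%, called 0%) and 0 and 0 in hippocampus (all genes 1.68%, called 0%). After 24 injections at 19 months they were 2 and 6 in cerebellum (all genes 6.67%, called 0%), 0 and 2 in cortex (all genes 3.52%, called 0%) and 1 and 15 of 86 in hippocampus (17.4%, all genes 3.91%, called 0%).

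All long plasma mice differ from all long PBS mice in the second title number, so number and plasma cannot be told apart there. At 18 months plasma replicates 10 and 13 share it with PBS replicate 11, and at 22 months all plasma mice share it with PBS replicate 21. Without the mice of the shared number at 18 months, the medians of the mitochondrial set were 0.05 in cerebellum, 0.08 in cortex and 0.01 in hippocampus, and of the nuclear set 0.14, 0.04 and -0.01. The plasma mice left there all differ in that number from the PBS mice left, so number and plasma cannot be told apart in these values. Against PBS replicate 21 alone at 22 months, they were 0.11, 0.21 and 0.20 for the mitochondrial and 0.15, 0.06 and -0.03 for the nuclear set. That comparison has 1 mouse in an arm.

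The medians under plasma were small and had no common sign. For the mitochondrial set at 18 months they were 0.00 in cerebellum, 0.03 in cortex and -0.03 in hippocampus, and for the nuclear set 0.03, -0.05 and 0.03. At 22 months they were 0.06, 0.02 and 0.03 for the mitochondrial and 0.10, 0.04 and -0.07 for the nuclear set. Leaving out 1 mouse at 22 months moved the mitochondrial median between -0.07 and 0.14 in cerebellum, -0.16 and 0.10 in cortex and -0.08 and 0.09 in hippocampus. The nuclear set of the 22-month hippocampus had 77 of 86 genes on the lower side under plasma, and its share of counts was 1.12%, 1.18% and 1.19% against 1.19%, 1.21% and 1.21% with PBS with a narrow gap and no overlap. After 24 injections the medians were -0.13, 0.10 and 0.17 for the mitochondrial and -0.01, 0.12 and 0.14 for the nuclear set. The mitochondrial median in cerebellum was -0.29 without plasma replicate 23 and -0.07 without plasma replicate 25. In cortex it was 0.18 without plasma replicate 27, 0.05 without plasma replicate 23 and 0.05 without PBS replicate 28, and in hippocampus 0.11 without plasma replicate 23. The nuclear median in cortex was 0.07 without plasma replicate 27. In the hippocampus 77 of 86 nuclear genes were on the higher side, with medians of 0.11 for complex I, 0.15 for complex III, 0.21 for complex IV and 0.17 for complex V. Cox6c stood there at 320, 322 and 362 CPM with plasma and 240, 282, 305 and 312 with PBS, without overlap. Choroid plexus markers summed to 52.9 to 4989 CPM with plasma and 24.1 to 2683 with PBS, and their part was not tested.

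The second experiment repeated the 7 injections at 18 months in hippocampus. Here 30 of 86 nuclear genes (34.9%) and 0 of 13 mitochondrial ones were under an unadjusted p of 0.05, where the share of all genes was 7.96% and 0% was called. The nuclear median was 0.18, with 77 genes on the higher and 9 on the lower side, and the mitochondrial median 0.14. The split of all genes is not given beside these side counts. Leaving out 1 mouse moved the nuclear median between 0.13 and 0.24 and the mitochondrial one between 0.03 (without PBS replicate 68) and 0.24 (without PBS replicate 69). It was 0.05 without PBS replicate 71 and 0.09 without plasma replicate 73. The lowest adjusted p of a member was 0.578. By complex, 16 of 36 genes of complex I, 1 of 8 assembly factors, 3 of 8 genes of complex III, 4 of 18 of complex IV and 6 of 16 of complex V were under that unadjusted p.

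Ndufa13, an accessory subunit of complex I, stood at 135, 137, 162, 168 and 169 CPM with plasma and 109, 122, 131 and 138 with PBS in the second experiment. The groups overlapped at their edge, and the difference was 0.34 (SE 0.09, adjusted p = 0.578), against 0.05 in the first experiment. Exons of Ndufa13 overlap another gene over 30% of their length. Ndufb11, in the membrane arm of complex I, stood at 91.7, 92.0, 96.7, 105 and 107 CPM with plasma and 72.8, 84.6, 87.3 and 90.3 with PBS. These groups did not overlap, with a difference of 0.27 (adjusted p = 0.578) against 0.08 in the first experiment. Cox6c stood at 261, 302, 324, 364 and 386 CPM with plasma and 244, 263, 272 and 288 with PBS, with overlap and a difference of 0.33 (adjusted p = 0.578) against 0.13. The abundant mt-Co1 differed by -0.03 and Cox4i1 by 0.19 (adjusted p = 0.604).

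Over both experiments together, 23 of 86 nuclear genes (26.7%) and 0 mitochondrial ones were under an unadjusted p of 0.05 (all genes 9.56%, called 0%). The nuclear median was 0.09 and the mitochondrial 0.00. This fit shares its libraries with both others. The joint differences were 0.19 for Ndufa13 (adjusted p = 0.343), 0.17 for Ndufb11 (adjusted p = 0.280), 0.23 for Cox6c (adjusted p = 0.337) and 0.21 for Ndufa7 of complex I (adjusted p = 0.276). The nuclear share of counts ran from 1.15% to 1.41% with plasma and from 1.12% to 1.31% with PBS in the second experiment, and overlapped. Choroid plexus markers there summed to 49.7, 1244, 1433, 1509 and 2589 CPM with plasma and to 35.2, 47.3, 88.2 and 3159 with PBS, and their part was not tested.

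Across the 29 libraries of a region, after removing group means, mt-Co1 and Cox4i1 each correlated more with members of their own genome than of the other. The median correlation of mt-Co1 with the other mitochondrial genes was 0.589 in cerebellum, 0.572 in cortex and 0.417 in hippocampus. Its median correlation with the nuclear members was 0.433, -0.264 and -0.0136. For Cox4i1, the median with the other nuclear members was 0.639, 0.769 and 0.583, and with the mitochondrial genes 0.408, 0.278 and 0.333. All these values come from the same libraries and share their depth and scaling.

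The genes most like mt-Co1 were Zmat5 (0.814), Ost4 (0.80), Cuedc2 (0.769), Otub1 (0.769) and mt-Nd1 (0.768) in cerebellum. In cortex they were Klhl6 (0.772), mt-Cytb (0.771), Smad4 (0.77), Fam214b (0.757) and Gm20683 (0.73), and in hippocampus mt-Nd1 (0.803), Ndrg2 (0.797), Fbxl22 (0.772), Siglech (0.751) and Aldoc (0.749). The genes most like Cox4i1 were Hint1 (0.881), Rack1 (0.862), Gm21988 (0.859), Ndufb7 (0.846) and Myl6 (0.839) in cerebellum. In cortex they were the ribosomal protein genes Rps14 (0.946) and Rps25 (0.942), Ndufb11 (0.939), Atp5j2 (0.93) and Pfdn5 (0.928), and in hippocampus Ubl5 (0.903), Dnajc2 (0.87), Ndufs6 (0.865), Hypk (0.86) and Atpif1 (0.86). The lists for mt-Co1 and Cox4i1 held no gene in common. The values are Pearson correlations of log2 CPM over 29 libraries a region, given as a description.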

How the data were processed

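Libraries of 96 mouse brain samples were made with RNeasy columns, Smart-Seq2 and Nextera XT without strand marking, per the labels' protocols. Per the submitters' processing notes, Trim Galore 0.3.7, STAR 2.5.3a, DESeq2 and GRCm38 were used by the authors, with no role given for them. The deposited table holds raw counts per gene symbol and library, without normalization, and all columns were matched to a sample. The counting tool, its annotation and the handling of reads with several matches are not given in the sources used here. Of 35486 symbols, 6251 were at 0 in all libraries and 35047 matched the reference names. No pair of libraries was identical.

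The counts were fitted with edgeR 4.0.16 in R 4.3.3 by the quasi-likelihood test, with TMM scaling and filterByExpr (minimum count 10, minimum total 15), and a call needed a Benjamini-Hochberg adjusted p under 0.05, taken over every gene tested. Each region was fitted alone over 29 libraries with 8 groups. Regions were compared over 87 libraries with the group, but not the mouse, as a term. The second experiment was fitted alone and together with the first. Alternatives were DESeq2 1.42.0 with its size factors, no filter on low counts, each replicate left out, libraries under 2500000 counts or with low region markers left out, and scaling without mitochondrial genes. Library totals alone were chosen after seeing the data. The fits were tested on simulated data. Shares are percent of the library total and carry no test. CPM values printed per library are counts per 1000000 of the library total.

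The same replicate number marks the same mouse in all 3 regions, per the labels. Deviations of 2 regions of a mouse from their group means had a median correlation of 0.0394 between cerebellum and cortex, 0.0677 between hippocampus and cortex and 0.0290 between hippocampus and cerebellum.

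In age and treatment comparisons, every mitochondrial member and up to 5 nuclear members a direction past the threshold were to be named. In region comparisons it was every mitochondrial member and up to 8 nuclear ones a direction, with a mean of at least 5 CPM in either region. A list of abundant subunits and paired genes was followed throughout; genes named for unadjusted values in the plasma, PBS and age comparisons were picked after their values were seen. The members and lists were chosen with earlier results of these data known. Some results on single genes are not reported here.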

Additional observations from a re-analysis of the deposited data

Results flagged for a closer look

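Within groups of 4 or 5 mice, the gap of the highest or lowest sample to the nearest of the others was compared with Dixon's critical value for the shares and their ratio. Of 42 such tests 4 passed, and chance gives about 1 in 20. In cortex, PBS replicate 11 of 18 months held 2.57% of its counts in mitochondrial genes where the other 3 mice held 2.34% to 2.36%, in a library of 2047016 counts, and replicate 20 of the untreated 2-month mice held 2.79% where the others held 2.54% to 2.56%. Long PBS replicate 24 held 1.24% of its cortical counts in nuclear members, against 1.14% to 1.15% in the other mice. In the hippocampus of the second experiment, PBS replicate 68 had a log2 ratio of mitochondrial to nuclear counts of 0.72, against 0.94 to 0.97 in the others. No cause of these values was tested.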

How the results depend on the processing

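Of 412 counts of called members recomputed under other settings, 392 stayed within 1.5 times the reported count or at 0, and of 9369 values for named genes 42 lost the threshold, 12 gained it and 5 called values changed sign. A further 178, not called in either setting, moved by more than the SD between replicates, and the other 9132 did none of these. For ages and treatments, leaving out each replicate gave 0 to 0 called members in every within-region comparison of a single experiment. The joint fit of both experiments was not refitted in that way. The exception to 0 was Cox8b in the cerebellum of 18 against 2 months, where 1 member was called with no low-count filter (adjusted p = 0.0334) and 1 without the libraries of low depth (adjusted p = 0.0493). With the mouse as replicate block, the members called were 82 between cerebellum and cortex, 39 between hippocampus and cortex and 82 between hippocampus and cerebellum, with 2 mitochondrial genes higher in hippocampus than in cortex (mt-Nd4 added, adjusted p = 0.0477) and 0, 0 and 0 for the differences of the age change between regions. The block ended the call of Cox4i2 between hippocampus and cortex (adjusted p = 0.0534) and changed no other call of a named gene and no other count by over 1.5 times.

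Scaling by library totals alone, chosen after seeing the data, gave 1 mitochondrial and 27 nuclear genes higher and 36 nuclear genes lower in cerebellum than in cortex, with a nuclear median of -0.06. It also gave 2 mitochondrial genes higher in hippocampus than in cortex and 21 nuclear genes lower in hippocampus than in cerebellum. Under it, the difference between cerebellum and cortex turned to 0.0671 for Ndufa4, 0.0418 for Uqcrc1 and 0.000555 for Cox5a, and that between hippocampus and cerebellum to -0.13 for Uqcrc1. The factors' means by region, given above, differ by construction between these scalings. The single mitochondrial gene higher in hippocampus than in cortex, mt-Nd6, gave 0 with no low-count filter, with scaling that left out mitochondrial genes, without low-depth libraries and without low-marker libraries.

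With the 4 untreated mice of 2 months alone (12 libraries), 45 members were called between cerebellum and cortex with 27 nuclear genes lower, and 39 nuclear genes were higher in hippocampus than in cerebellum. Between hippocampus and cortex 0 were called there: 0 and 0 mitochondrial and 0 and 0 nuclear genes higher and lower. Fewer samples enter that fit by construction. Cox4i2 turned to -0.43 between cerebellum and cortex in it. Depth limits Cox7b2, Cox8b, Cox6b2 and the mitochondrial genes with copies, which rest on few counts a library.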

Other observations

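Of 13 genes that keep and read the mitochondrial genome, 7 were higher and 3 lower in cerebellum than in cortex, with a median log2 difference of 0.16. Polg2, the accessory subunit of the mitochondrial DNA polymerase, was at 1.92, Mterf4 at 0.78, Polrmt, the mitochondrial RNA polymerase, at 0.56, and Tfam, which packs the DNA and starts its transcription, at 0.18, while the methyltransferase Tfb1m was at -0.64. Of 10 regulators of nuclear respiratory genes, 6 were higher and 0 lower (median 0.32). Ppargc1b (1.10), Esrrg (1.07), Gabpb1 (0.79), Nrf1 (0.75) and Gabpa (0.49) were among the higher ones, and Ppargc1a was at -0.04 (adjusted p = 0.234). Over all genes 85.1% were called and 43.8% were higher, and no link between these values and the respiratory chain genes was tested.

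Of 13 genes of the citrate cycle, 6 were higher and 4 lower in cerebellum than in cortex (median 0.04), with Idh3a at -0.40 and Idh3g at 0.24, subunits of the same dehydrogenase. Of 9 carriers of the inner membrane, 4 were higher and 3 lower (median 0.06).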
